A study of Mus musculus with 12 samples.

Results

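The 37 genes described here encode the glucose transporters, the enzymes and regulators of glycolysis, and the factors and targets of the hypoxia response. They were taken by gene symbol from a table of 52336 genes, and all 37 were matched and passed the filter on low values. RNA sequencing measured them in 12 libraries of cardiomyocytes, 3 in each group, from wild type mice collected on postnatal day 3. Pups were injected with NAC (N-acetylcysteine, an antioxidant that supplies cysteine) or saline each day from day 0 to day 1, and on day 2 either had the left anterior descending coronary artery occluded (myocardial infarction, MI) or had a sham procedure. The groups were NAC MI, saline MI, NAC sham and saline sham. The dose of NAC was labelled high, in saline buffered with 25 mM HEPES and 140 mM NaCl. The cells came from pooled hearts and were selected with a kit for neonatal cardiomyocytes, so a library is a mixture of animals and of any cell types that passed the selection. The study asked how the transcriptome of these cells responds to a surplus of antioxidant, with and without injury.

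Glycolysis splits glucose into pyruvate in 10 enzymatic steps, a preparatory phase that uses ATP and a payoff phase that returns it, and lactate dehydrogenase then turns pyruvate into lactate. The newborn heart relies on glycolysis more than the adult heart does. Hypoxia-inducible factors (HIF) are pairs of an alpha and a beta subunit. Prolyl hydroxylases mark the alpha subunit for destruction while oxygen is present. When oxygen is scarce the alpha subunit persists and turns on genes of glucose uptake, glycolysis, vessel growth and the hydroxylases themselves, so that the pathway can be active with no change in the mRNA of its alpha subunits.

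Depth ran from 14353842 to 25118341 reads per library, and mitochondrial transcripts took 7.65% to 30.2% of them. The 12 cardiomyocyte markers had reads in every group, with summed levels of 496242 to 655029 normalized read counts in NAC MI, 445303 to 628027 in saline MI, 233991 to 613156 in NAC sham and 350042 to 558031 in saline sham. Here 3 libraries stood apart. NAC sham 2 had the lowest cardiomyocyte level, 233991, and the highest macrophage and monocyte level, 27340. NAC MI 2 had 1705 for the macrophage markers, close to the sham libraries, and in saline sham 3 mitochondrial transcripts took 27.7% of reads, against 7.65% and 13.6% in the other saline sham libraries. The replicates are numbered by accession order, and nothing in the labels ties each to its own animals, so the p-values cover only the spread among libraries, which may be technical. Sample titles carry prefixes of unstated meaning, none of them common to MI and sham, and the effect of surgery and that of the prefix cannot be told apart. In bulk samples, fewer cells of a type and less RNA per cell cannot be told apart either.

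Per kilobase of exon, the highest mean levels over the 12 libraries belonged to general glycolytic enzymes and to forms of muscle or heart. These were Gapdh at 8658 normalized read counts per kilobase, Aldoa at 6530, Eno3 at 5867, Ldhb at 5673 and Pgam2 at 5163. The lowest belonged to Pfkfb1 at 9.81, the hypoxia marker Car9 at 11.7 and Pfkfb4 at 16.1. Among the factors, Epas1 had 942 and Hif1a 403 normalized read counts per kilobase. The map of all members by library shows that the glycolytic enzymes were mostly above their mean in MI and below it in NAC sham.

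**Figure D1:**
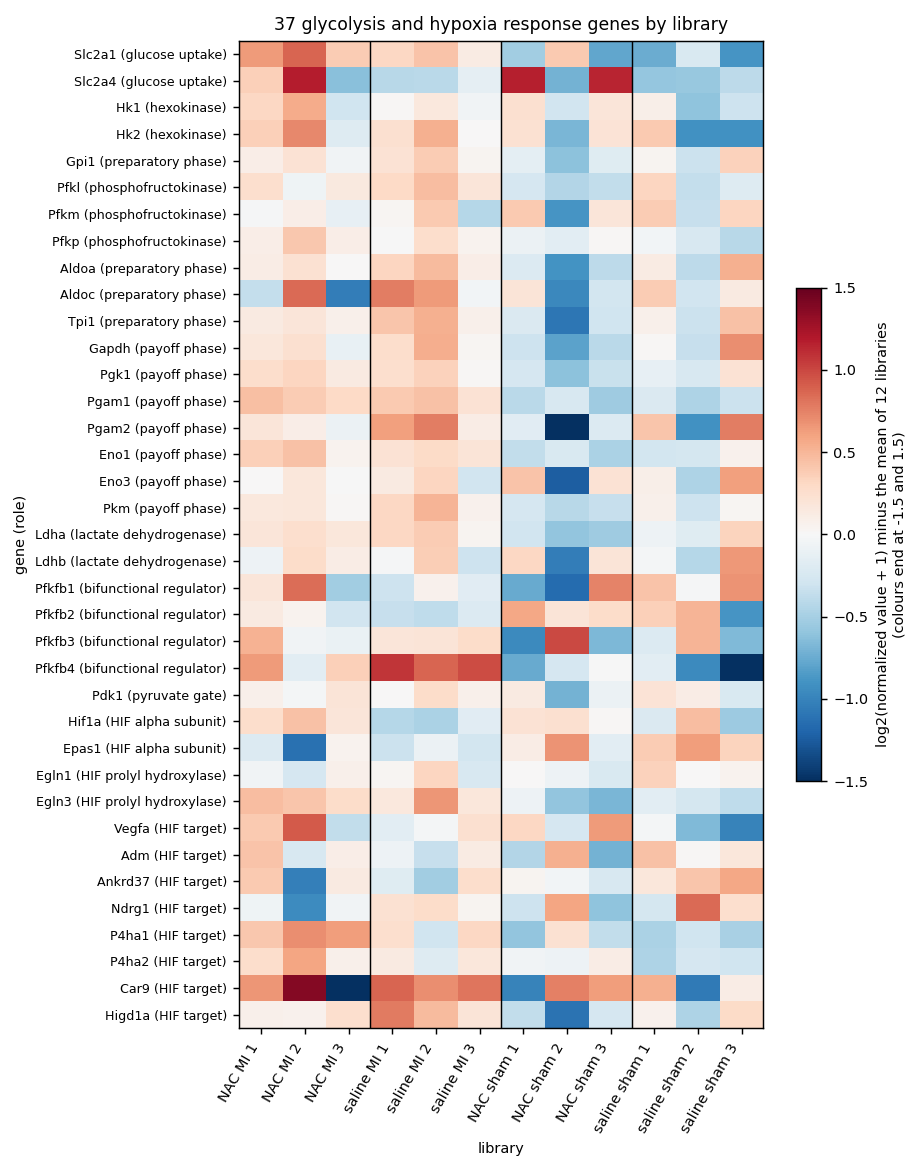
Each cell is a member's log2(normalized value + 1) in a library minus its mean over the 12 libraries, with rows ordered by role and the colour scale ending at 1.5 either way. Pgam1 and Egln3 are red in all 6 MI libraries and blue in all 6 sham libraries, and NAC sham 2 has the darkest blue of the row for Tpi1, Pgam2, Eno3 and Ldhb.

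After MI, averaged over NAC and saline, 6 of the 37 genes rose and none fell: the glucose transporter Slc2a1, the glycolytic enzymes Pgam1 and Eno1, the regulator Pfkfb4, the oxygen sensor Egln3 and the collagen hydroxylase P4ha1. These are adjusted p-values under 0.05 from limma with Benjamini-Hochberg adjustment over 14996 genes. The 6 are 16.2% of the members, against 2.13% of all genes tested that rose. In all, 28 of 37 members had a log2 fold change above 0, with a median of 0.33 against -0.0030 for all genes, of which 49.7% were above 0 and 0.613% passed as lower. At an unadjusted p under 0.05, 15 members were higher and 1 lower, against 10.4% of all genes higher and 20.2% in either direction. The averaged comparison uses the same libraries as the comparisons after NAC and after saline and is not independent of them.

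Pgam1 (phosphoglycerate mutase, the third last enzyme of glycolysis, ENSMUSG00000011752) had 1603, 1533 and 1445 normalized read counts in NAC MI libraries and 1543, 1599 and 1366 in saline MI, against 887, 998 and 814 in NAC sham and 1013, 853 and 937 in saline sham. The 6 MI libraries lay above all 6 sham libraries. Its log2 fold change was 0.73 (SE 0.108, adjusted p = 0.00337), or 1.65-fold. Egln3 (a HIF prolyl hydroxylase and itself a HIF target, ENSMUSG00000035105) had 1233, 1194 and 1079 in NAC MI libraries and 996, 1408 and 1007 in saline MI, against 849, 594 and 556 in NAC sham and 800, 744 and 683 in saline sham. Here too every MI library was above every sham library, and the log2 fold change was 0.72 (SE 0.140, adjusted p = 0.0171). Pgam1 and Egln3 were the members whose MI and sham libraries did not overlap, 2 of 37, where 1.45% of all genes tested were separated in this direction. The near-copies of Pgam1 in the annotation, 2 pseudogenes, held reads equal to 0.781% of its own.

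Pfkfb4 (one of the bifunctional enzymes that make and break fructose 2,6-bisphosphate, the activator of phosphofructokinase, ENSMUSG00000025648) had 106, 60.6 and 87.1 normalized read counts in NAC MI libraries and 145, 126 and 134 in saline MI, against 39.8, 56.9 and 67.7 in NAC sham and 60.9, 34.7 and 21.4 in saline sham. The saline MI libraries were the highest of all, and NAC MI 2 lay within the sham range. Its averaged log2 fold change was the largest of the members, 1.25 (SE 0.271, adjusted p = 0.0286). Slc2a1 (GLUT1, the transporter of basal glucose uptake, ENSMUSG00000028645) had 639, 753 and 534 in NAC MI libraries and 509, 553 and 447 in saline MI, against 287, 540 and 240 in NAC sham and 245, 351 and 221 in saline sham. NAC sham 2 alone of the sham libraries reached the MI range. The log2 fold change was 0.92 (SE 0.202, adjusted p = 0.0310).

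These 4 genes had the smallest p-values among the members with a promoter in the reference tables, and their promoters are printed for that reason. The core of the HIF binding element can be read in each. The sequences are from RefSeq on GRCm38.p6, run 5′ to 3′ on the gene's own strand from 250 bases before the start to 50 bases after it, and have ACGTG and GCGTG in capitals on either strand (CACGT and CACGC when read from the other strand). The windows lie at chr19:41911621-41911920 on the plus strand for Pgam1, chr12:54203825-54204124 on the minus strand for Egln3, chr9:108991652-108991951 on the plus strand for Pfkfb4 and chr4:119108495-119108794 on the plus strand for Slc2a1.
Pgam1: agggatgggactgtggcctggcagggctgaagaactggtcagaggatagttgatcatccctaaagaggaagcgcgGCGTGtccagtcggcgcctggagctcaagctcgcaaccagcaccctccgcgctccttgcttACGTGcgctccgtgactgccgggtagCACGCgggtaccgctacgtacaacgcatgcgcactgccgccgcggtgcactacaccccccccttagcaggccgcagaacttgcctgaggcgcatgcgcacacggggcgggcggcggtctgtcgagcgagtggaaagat
Egln3: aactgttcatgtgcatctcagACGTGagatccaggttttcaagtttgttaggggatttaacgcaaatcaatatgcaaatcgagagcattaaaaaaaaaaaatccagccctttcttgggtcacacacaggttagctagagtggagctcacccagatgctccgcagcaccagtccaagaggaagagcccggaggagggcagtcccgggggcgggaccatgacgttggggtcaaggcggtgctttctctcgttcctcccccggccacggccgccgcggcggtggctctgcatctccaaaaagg
Pfkfb4: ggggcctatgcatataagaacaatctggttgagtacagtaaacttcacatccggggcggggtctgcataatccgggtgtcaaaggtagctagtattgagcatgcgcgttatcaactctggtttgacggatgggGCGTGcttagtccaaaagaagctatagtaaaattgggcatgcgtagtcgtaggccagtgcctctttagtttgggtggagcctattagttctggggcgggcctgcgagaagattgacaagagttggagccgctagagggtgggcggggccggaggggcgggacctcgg
Slc2a1: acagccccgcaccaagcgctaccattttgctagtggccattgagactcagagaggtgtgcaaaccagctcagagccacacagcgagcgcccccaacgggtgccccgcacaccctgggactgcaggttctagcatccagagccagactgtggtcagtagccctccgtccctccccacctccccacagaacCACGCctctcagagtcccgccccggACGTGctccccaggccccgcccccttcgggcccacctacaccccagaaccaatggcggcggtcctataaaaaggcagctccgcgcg
Pgam1 held 1 ACGTG and 2 GCGTG, Egln3 held 1 ACGTG, Pfkfb4 held 1 GCGTG, and Slc2a1 held 1 of each. Windows were found for 34 members, 53 in all, and 77.4% held either motif, against 43.8% of the 32851 windows of all genes. By motif, ACGTG stood in 49.1% of members' windows against 19.6% of all windows, and GCGTG in 56.6% against 32.4%. CACGTG, which reads ACGTG on both strands and is the E-box of other factors, was in 9.43% of members' windows and 7.15% of all. The members' windows were also richer in G and C, with a median of 59.3% against 52.7%, and both motifs hold CG. Of the 34 members, 31 had either motif, so the risen members (8 windows, all with one) were not distinguished by it. A match describes the letters and is not a measured binding site. Slc2a4, Epas1 and Ndrg1 had no window.

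P4ha1 (the catalytic subunit of the collagen prolyl 4-hydroxylase, a HIF target, ENSMUSG00000019916) had 1521, 1868 and 1779 normalized read counts in NAC MI libraries and 1372, 930 and 1425 in saline MI, against 759, 1343 and 887 in NAC sham and 829, 933 and 816 in saline sham. All NAC MI libraries were above every sham library, while saline MI 2 lay below saline sham 2 and NAC sham 2. The log2 fold change was 0.67 (SE 0.160, adjusted p = 0.0441). Eno1 (the widely expressed enolase, the second last step, ENSMUSG00000063524) had 8148, 8627 and 6617 in NAC MI libraries and 7395, 7781 and 7305 in saline MI, against 4930, 5455 and 4594 in NAC sham and 5251, 5326 and 6648 in saline sham. Only NAC MI 3 and saline sham 3 broke the separation, by a small margin. The log2 fold change was 0.51 (SE 0.126, adjusted p = 0.0487). In the annotation 4 near-copies of Eno1, whose reads the authors' counting could have split from it, held reads equal to 11.1% of its own, and with them added the log2 fold change was 0.53.

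**Figure D2:**
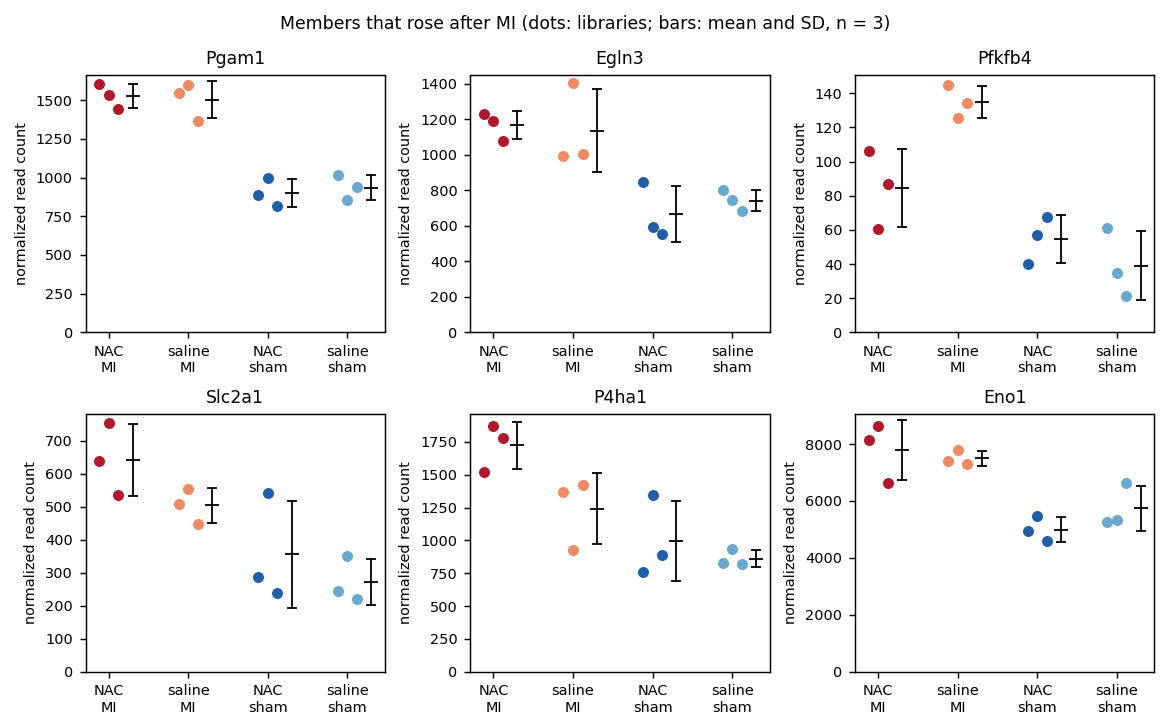
Normalized read counts of the 6 members that rose after MI, with a dot for each library and the mean and SD of the 3 libraries of a group beside them. All MI dots are above all sham dots for Pgam1 and Egln3, and NAC sham 2 is the high sham dot for Slc2a1 (540) and P4ha1 (1343).

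The count of 6 moved in most fits that left out a library. It stayed at 6, with the same members, without NAC sham 2, and was 5 without NAC MI 3. These 2 fits called 4.08% and 2.95% of all genes tested, against 16.2% and 13.5% of the members. Pgam1 and Egln3 passed in all 12 fits that left out a library, Pfkfb4 in 6, Slc2a1 in 4 and P4ha1 and Eno1 in 3 each. Without saline sham 3, 10 members passed. The count was 2 without NAC MI 1, NAC sham 1, saline MI 1 or saline MI 3, and 3 without NAC MI 2, NAC sham 3, saline MI 2, saline sham 1 or saline sham 2. The fits that gave 2 called 0.887% to 1.81% of all genes tested, against 5.41% of the members. Those that gave 3 called 1.33% to 3.50% of all genes, against 8.11% of the members. The count was 10 again without the 3 libraries that stood apart. In both fits that gave 10, 9 rose and Pfkfb2 fell. Without saline sham 3, 10.4% of all genes tested were called, and without the 3 libraries 14.6%, against 27.0% of the members in each.

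Markers of other cells moved with MI. All 20 macrophage and monocyte markers had a log2 fold change above 0 (median 1.98) and 3 passed, with summed levels of 1705 to 16783 in NAC MI and 12960 to 19638 in saline MI, against 1592 to 27340 in NAC sham and 1031 to 1637 in saline sham. All 11 neutrophil markers tested of 12 were higher (median 2.87) and 7 passed, with sums of 1100 to 6409 in NAC MI and 5333 to 6230 in saline MI, against 519 to 1118 in NAC sham and 158 to 867 in saline sham. Of 8 epicardial markers 7 were higher (median 1.83) and 4 passed. All 12 fibroblast markers were higher (median 0.57) and 1 passed. The fibroblast sums were 146906 to 231751 in NAC MI and 167233 to 255550 in saline MI. They were 104608 to 160995 in NAC sham and 104008 to 151321 in saline sham. Mural cell markers were lower in 6 of 8 cases (median -0.42), with 1 passing as lower and 1 as higher. Red cell markers were higher in 8 of 8 cases (median 0.54) and none passed. Of the 12 cardiomyocyte markers 9 were higher and 3 lower (median 0.25), and none passed. None of these lists had a marker at 0 throughout a group. In NAC MI 2, with macrophage markers at 1705 and the highest epicardial sum of all libraries, 19632, the levels were Pgam1 at 1533, Egln3 at 1194, Slc2a1 at 753, P4ha1 at 1868 and Eno1 at 8627, all within or above the range of the other MI libraries, with Pfkfb4 below it at 60.6. NAC sham 2, with macrophage markers at 27340, had Pgam1 at 998, Egln3 at 594, Eno1 at 5455 and Pfkfb4 at 56.9, below all MI libraries, and Slc2a1 at 540 and P4ha1 at 1343, inside the MI range. The part of these cells in the results was not tested.

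No other enzyme of the pathway passed in the limma fit of all 12 libraries without weights. DESeq2 and the limma fit with library quality weights both called Ldha, Pgk1, Pfkl and Pkm, and the weights also called Tpi1. The fit without the 3 libraries that stood apart called Ldha and Pgk1. Of all genes tested, DESeq2 called 8.12%, the weights 27.9% and the fit without the 3 libraries 14.6%. Of 18 enzymes of the 10 steps and lactate dehydrogenase, 17 had an averaged log2 fold change above 0, with a median of 0.41, and the exception was the muscle phosphofructokinase Pfkm at -0.02. Ldha (the lactate dehydrogenase form favoured in anaerobic tissue) had 17853, 18721 and 17579 normalized read counts in NAC MI libraries and 19476, 20361 and 16099 in saline MI, against 12854, 10443 and 10796 in NAC sham and 14839, 13846 and 19762 in saline sham. Saline sham 3 was the one sham library in the MI range, and the log2 fold change was 0.45 (SE 0.153, adjusted p = 0.134). Pgk1 (phosphoglycerate kinase, which makes ATP) had 0.44 (adjusted p = 0.102), the liver phosphofructokinase Pfkl 0.43 (adjusted p = 0.108) and the pyruvate kinase Pkm 0.41 (adjusted p = 0.146). Tpi1, Aldoa, Gapdh and Gpi1 had log2 fold changes of 0.47, 0.41, 0.38 and 0.30, with adjusted p-values of 0.191 to 0.346. Pgam2 (the muscle mutase) had 0.56, Pfkp 0.31, Aldoc 0.27, Eno3 (the muscle enolase) 0.11 and Ldhb (the lactate dehydrogenase form of the adult heart) 0.11. For Tpi1, Aldoa, Gapdh and Gpi1 saline sham 3 was the highest or next to highest library, with 14271 for Tpi1, 26613 for Aldoa, 55609 for Gapdh and 11151 for Gpi1.

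The hexokinases, which trap glucose by phosphorylating it, did not pass. Hk1 had 3348, 3949 and 2187 normalized read counts in NAC MI libraries and 2725, 3000 and 2598 in saline MI, against 3195, 2204 and 3061 in NAC sham and 2862, 1774 and 2178 in saline sham. Hk2 (the form that insulin and HIF induce) had 1277, 1653 and 874 in NAC MI libraries and 1182, 1448 and 1007 in saline MI, against 1175, 619 and 1155 in NAC sham and 1308, 531 and 533 in saline sham. The sham libraries of Hk2 fell apart into 3 at 1155 to 1308 and 3 at 531 to 619, and the groups overlapped for both genes. Their log2 fold changes were 0.23 (adjusted p = 0.483) for Hk1 and 0.56 (adjusted p = 0.245) for Hk2.

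Of the regulators, Pfkfb1, Pfkfb2 and Pfkfb3 had averaged log2 fold changes of 0.03, -0.35 and 0.34, none passing. Pdk1 (pyruvate dehydrogenase kinase, which holds pyruvate back from the mitochondria and is a HIF target) had 2673, 2490 and 2913 normalized read counts in NAC MI libraries and 2542, 3066 and 2675 in saline MI, against 2794, 1557 and 2382 in NAC sham and 2918, 2737 and 2166 in saline sham. NAC sham 2 was low and the rest overlapped, with a log2 fold change of 0.20 (SE 0.151, adjusted p = 0.493).

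Neither HIF alpha subunit passed in the limma fit of all 12 libraries without weights. Hif1a had 2787, 3140 and 2624 normalized read counts in NAC MI libraries and 1723, 1657 and 2049 in saline MI, against 2679, 2733 and 2348 in NAC sham and 1991, 3196 and 1586 in saline sham, for an averaged log2 fold change of -0.06 (SE 0.159, adjusted p = 0.867). Epas1 (HIF-2 alpha, abundant in endothelium) had 4335, 2303 and 5221 in NAC MI libraries and 3994, 4725 and 4139 in saline MI, against 5394, 8014 and 4506 in NAC sham and 6508, 7745 and 6307 in saline sham. Its log2 fold change was -0.65 (SE 0.203, adjusted p = 0.104), and after saline the groups did not overlap. It was called lower in 2 of 9 other alternatives of the averaged comparison, DESeq2 and library quality weights, and after saline in 2 of 10, the weights and the fit without the 3 libraries that stood apart. Endothelial markers moved alongside: 11 of 12 had an averaged log2 fold change below 0 and none passed. Their summed levels were 37670 to 69240 in NAC MI and 59216 to 66410 in saline MI, against 52604 to 107566 in NAC sham and 82075 to 97178 in saline sham, with no marker at 0 throughout a group. NAC MI 2 had the lowest of both, and their part in the Epas1 values was not tested. Egln1 (the main HIF prolyl hydroxylase) had a log2 fold change of -0.04 (adjusted p = 0.904), beside the rise of Egln3.

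Among 8 HIF targets, P4ha1 rose and 5 had averaged log2 fold changes above 0. Higd1a (a mitochondrial protein induced by hypoxia) came next to passing, with 1258, 1243 and 1420 normalized read counts in NAC MI libraries and 2048, 1648 and 1358 in saline MI, against 920, 550 and 1000 in NAC sham and 1241, 860 and 1451 in saline sham. Its log2 fold change was 0.62 (SE 0.180, adjusted p = 0.0877). Vegfa (vascular endothelial growth factor A) had 1896, 2741 and 1122 in NAC MI libraries and 1292, 1419 and 1706 in saline MI, against 1787, 1211 and 2256 in NAC sham and 1419, 913 and 719 in saline sham. NAC MI 2 held the highest level, but the groups overlapped broadly, with a log2 fold change of 0.33 (SE 0.235, adjusted p = 0.445). P4ha2 (a second collagen prolyl hydroxylase subunit) had 0.35 (adjusted p = 0.180), and Adm (adrenomedullin, a vasodilator peptide) and Ndrg1 (a stress-induced gene) had -0.0044 and -0.17.

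Ankrd37 (an ankyrin repeat gene and HIF-1 target) had 95.7, 35.4 and 80.3 normalized read counts in NAC MI libraries and 63.9, 50.5 and 87.7 in saline MI, against 74.9, 70.9 and 61.5 in NAC sham and 81.9, 97.2 and 109 in saline sham. It had the lowest log2 fold change of the 8, -0.31 (SE 0.261, adjusted p = 0.534). Car9 (carbonic anhydrase 9, used as a hypoxia marker) had 31.9, 53.1 and 0 in NAC MI libraries and 37.02, 32.7 and 35.1 in saline MI, against 9.36, 34.2 and 31.2 in NAC sham and 29.0, 8.93 and 21.4 in saline sham. The 0 in NAC MI 3 allows up to 3.39 normalized read counts, the value of 3 reads there, for counting error only. The log2 fold change was 0.01 (SE 0.815, adjusted p = 0.995), and leaving out 1 library moved it between -0.53 and 0.91, the higher value without NAC MI 3. After saline all MI libraries were above all sham libraries, with a log2 fold change of 0.93 (SE 1.15, adjusted p = 0.804).

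**Figure D3:**
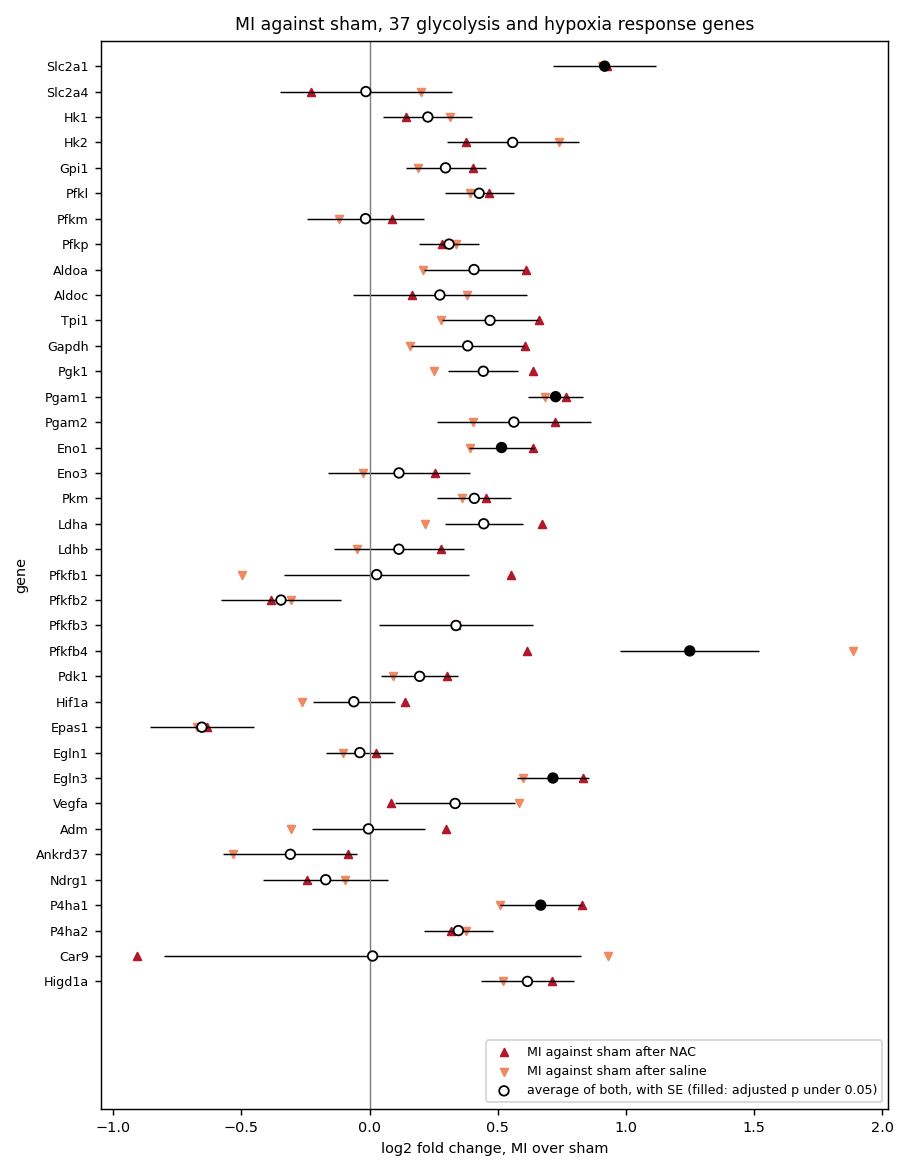
The log2 fold change of MI over sham for each member, after NAC (upward triangles), after saline (downward triangles) and averaged (circles with SE, filled where the adjusted p was under 0.05). The 6 filled circles lie between 0.51 and 1.25, and Pfkfb4 is the filled circle with the widest gap between its triangles.

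Taken within one injection, fewer members passed. After NAC no member passed in limma, where 0.127% of all genes rose and 0% fell, while 12 were higher and 1 lower at an unadjusted p under 0.05, against 5.11% of all genes higher and 10% in either direction. In that comparison edgeR called 0 and DESeq2 5, and without NAC sham 2 limma called 1, Slc2a1. Of all genes, edgeR called 0.187%, DESeq2 called 1.61% and the limma fit that left out NAC sham 2 called 0.447%. Of the members 31 had a log2 fold change above 0, against 49.8% of all genes. The smallest adjusted p was 0.0688, for Pgam1 with a log2 fold change of 0.77, followed by Egln3 (0.83, adjusted p = 0.164), P4ha1 (0.83, adjusted p = 0.220) and Eno1 (0.64, adjusted p = 0.236). All 18 enzymes had a log2 fold change above 0 after NAC, with a median of 0.46, and 12 of them did not overlap between the groups. That shared direction depended on the libraries. Leaving out 1 library took some enzymes below 0, such as Aldoc (down to -0.35), Eno3 (-0.27) and Ldhb (-0.15). Without NAC sham 2, 26 of the 37 members were above 0, with a median of 0.25 against -0.03 for all genes. Over all members 15 were separated upward and 1, Pfkfb2, downward, against 9.08% and 9.96% of all genes tested.

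After saline only Pfkfb4 passed in limma, where 0.854% of all genes rose and 0.00667% fell, with a log2 fold change of 1.88 (SE 0.383, adjusted p = 0.0387), or 3.69-fold. It passed in 1 of the 6 fits that left out a library, the one without saline sham 1, and so not without any of saline MI 1, 2 and 3 or saline sham 2 and 3, where the adjusted p ran from 0.0692 to 0.210. Next came Pgam1 (0.69, adjusted p = 0.0576), Slc2a1 (0.91, adjusted p = 0.209) and Egln3 (0.60, adjusted p = 0.234). Of the 18 enzymes 15 had a log2 fold change above 0, with a median of 0.30. Over all members 26 were above 0, against 49.1% of all genes, and 6 were higher and 1 lower at an unadjusted p under 0.05, against 6.87% of all genes higher and 11.4% in either direction. The libraries were separated upward for 8 members and downward for 1, Epas1, against 10.4% and 8.15% of all genes tested. The MI effect was tested for a difference between NAC and saline, and no member passed in limma, edgeR or DESeq2. Only Pfkfb4 had an unadjusted p under 0.05, with a log2 difference of -1.27 (SE 0.541, adjusted p = 0.9999), where 2.03% of all genes were under 0.05 unadjusted and 0% passed.

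NAC against saline moved no member past the threshold in limma, after MI, after sham surgery or averaged, and 0% of all genes tested passed in any of these comparisons. After MI, 2 members were higher and 0 lower at an unadjusted p under 0.05, after sham 2 and 2, and averaged 4 and 1. Of all genes tested, 9.22% were under 0.05 in either direction after MI, 5.89% after sham and 15.5% averaged. No member passed in edgeR in any of these, and in DESeq2 only Slc2a4 did, when averaged. That is 1 of 37 members, where DESeq2 called 2.88% of all genes tested, so the members did not exceed the share of all genes. The medians of the members were -0.01 after MI, -0.24 after sham and -0.14 averaged, against -0.02 for all genes in each.

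Hif1a had the smallest p after MI. Its 3 NAC MI libraries, at 2787, 3140 and 2624 normalized read counts, were above the 3 saline MI libraries at 1723, 1657 and 2049, for a log2 fold change of 0.66 (SE 0.225, adjusted p = 0.529). The 2 title prefixes that held both groups showed the same order. Under the first NAC MI 1 and 2 had 2787 and 3140 against 2049 in saline MI 3, and under the second NAC MI 3 had 2624 against 1723 and 1657 in saline MI 1 and 2. With the prefix as a block the log2 fold change was 0.58 (adjusted p = 0.392). P4ha1 was also separated upward (log2 fold change 0.49, adjusted p = 0.538), and Pfkfb4 (-0.70, adjusted p = 0.570) and Ndrg1 (-0.53, adjusted p = 0.603) were separated downward. Ndrg1 had 555, 302 and 561 normalized read counts in NAC MI libraries, against 680, 702 and 595 in saline MI, and 469, 873 and 382 in NAC sham, against 483, 1044 and 690 in saline sham. In all 4 members did not overlap, against 20.3% of all genes tested.

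After sham surgery the smallest p-values belonged to Vegfa (log2 fold change 0.80), Ldha (-0.50), Tpi1 (-0.60) and Slc2a4 (1.05), all with an adjusted p of 0.770. Slc2a4 (GLUT4, the transporter that insulin moves to the surface of muscle cells) had 710, 1256 and 360 normalized read counts in NAC MI libraries and 416, 420 and 506 in saline MI. It had 1243, 338 and 1228 in NAC sham, against 370, 373 and 422 in saline sham. Its averaged MI log2 fold change was -0.01. The NAC libraries fell into 3 at 1228 to 1256, 1 at 710 and 2 at 338 to 360, while all saline libraries lay between 370 and 506. NAC sham 2, which stood apart in its markers, was one of the low ones. Without it the averaged log2 fold change passed, at 1.14 (adjusted p = 0.0393), and without all 3 libraries that stood apart the value after sham did, at 1.73 (adjusted p = 0.00657). In the same comparisons these 2 fits called 1.67% and 2.79% of all genes tested. NAC sham 1 and 3 carried no title prefix, so in these fits NAC and prefix cannot be told apart among sham libraries. The sham prefix that held both groups had 338 in NAC sham 2, against 370 and 373 in saline sham 1 and 2. Under the first MI prefix NAC MI 1 and 2 had 710 and 1256, against 506 in saline MI 3. Under the second NAC MI 3 had 360, against 416 and 420 in saline MI 1 and 2.

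Ldha was lower in all 3 NAC sham libraries, at 12854, 10443 and 10796 normalized read counts, than in saline sham at 14839, 13846 and 19762. Tpi1 (triose phosphate isomerase) had 9065, 4994 and 8592 in NAC sham, against 11124, 8480 and 14271 in saline sham, with overlap, and 11624, 11942 and 11107 in NAC MI, against 14075, 15327 and 11116 in saline MI. The direction was shared by most enzymes, of which 15 of 18 had a log2 fold change below 0 after sham. Their median was -0.28, against -0.02 for all genes, and none passed. The median of all 37 members, -0.24, was -0.11 without the 3 libraries that stood apart. Under the alternatives Eno3 ran from -0.59 to 0.51 and Ldhb from -0.49 to 0.48. Markers of other cells differed in the same comparison, though none passed: macrophage markers were higher in 20 of 20 cases (median log2 fold change 1.70), neutrophil markers in 11 of 11, endothelial markers lower in 11 of 12 and red cell markers lower in 8 of 8 (median -1.08). Summed macrophage markers were 27340 in NAC sham 2, but 2130 and 1592 in NAC sham 1 and 3, against 1031 to 1637 in saline sham. Neutrophil sums were 519 to 1118 in NAC sham, against 158 in saline sham 1 and 867 and 793 in saline sham 2 and 3. Summed red cell markers ran from 189089 to 412812 in NAC sham, against 547261 to 1398000 in saline sham. Cardiomyocyte markers had a median of -0.24, with 5 of 12 higher and 7 lower. At an unadjusted p under 0.05, 3 of them were higher and 0 lower, where 5.89% of all genes differed in either direction. Their sums were 613156 and 611822 in NAC sham 1 and 3 and 233991 in NAC sham 2, against 350042 to 558031 in saline sham. The part of all these cells was not tested. NAC sham 2 was the lowest of all 12 libraries for Tpi1 (4994), Aldoa (9868) and Gapdh (19804). Over all members 5 did not overlap after sham, 4 of them downward, against 9.86% of all genes tested. Averaged over surgery, Hif1a had the smallest p (log2 fold change 0.46, adjusted p = 0.243), then Slc2a4 (0.83, adjusted p = 0.278), Higd1a (-0.44, adjusted p = 0.280) and Vegfa (0.55, adjusted p = 0.291).

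**Figure D4:**
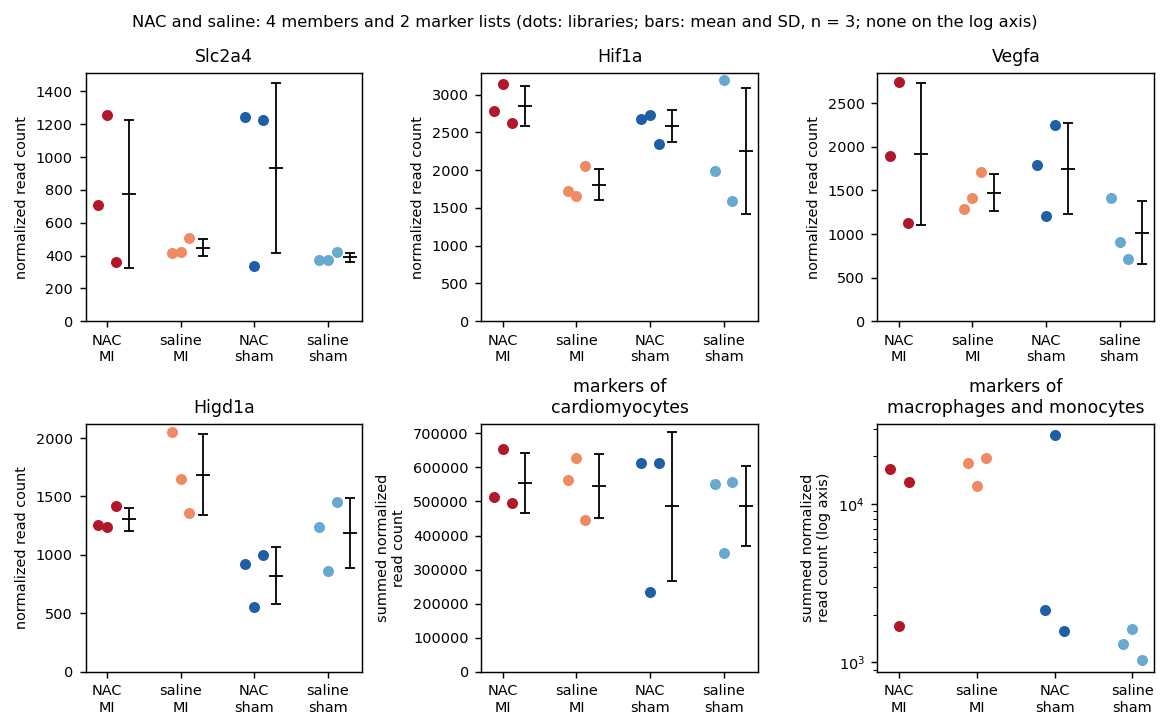
Normalized read counts of Slc2a4, Hif1a, Vegfa and Higd1a, and the summed levels of the cardiomyocyte and macrophage markers (the last on a log axis), with dots for libraries and, on linear axes, the mean and SD of 3 libraries. Hif1a is higher in all 3 NAC MI libraries than in all 3 saline MI libraries, and Slc2a4 varies from 338 to 1256 within NAC against 370 to 506 within saline.

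Several steps are run by a widely expressed and a muscle form, and their ratio was taken per kilobase of exon within each library. Eno1 to Eno3 stood at 0.268, 0.255 and 0.220 in NAC MI libraries and 0.223, 0.206 and 0.296 in saline MI, against 0.122, 0.427 and 0.131 in NAC sham and 0.164, 0.242 and 0.143 in saline sham. Apart from NAC sham 2 and saline sham 2, the sham ratios were below all MI ratios. Slc2a1 to Slc2a4 stood at 0.892, 0.595 and 1.47 in NAC MI libraries and 1.21, 1.31 and 0.877 in saline MI, against 0.229, 1.59 and 0.194 in NAC sham and 0.656, 0.934 and 0.520 in saline sham. The lowest were NAC sham 1 and 3, where Slc2a4 was high. Pgam1 to Pgam2 ran from 0.150 to 0.164 in NAC MI and 0.101 to 0.135 in saline MI, against 0.100 to 0.324 in NAC sham and 0.0588 to 0.171 in saline sham. NAC sham 2 had the highest ratio of all libraries for Eno1, Slc2a1, Pgam1 and Ldha over their partners, with the lowest cardiomyocyte markers, and the part of its cell mixture was not tested.

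**Figure D5:**
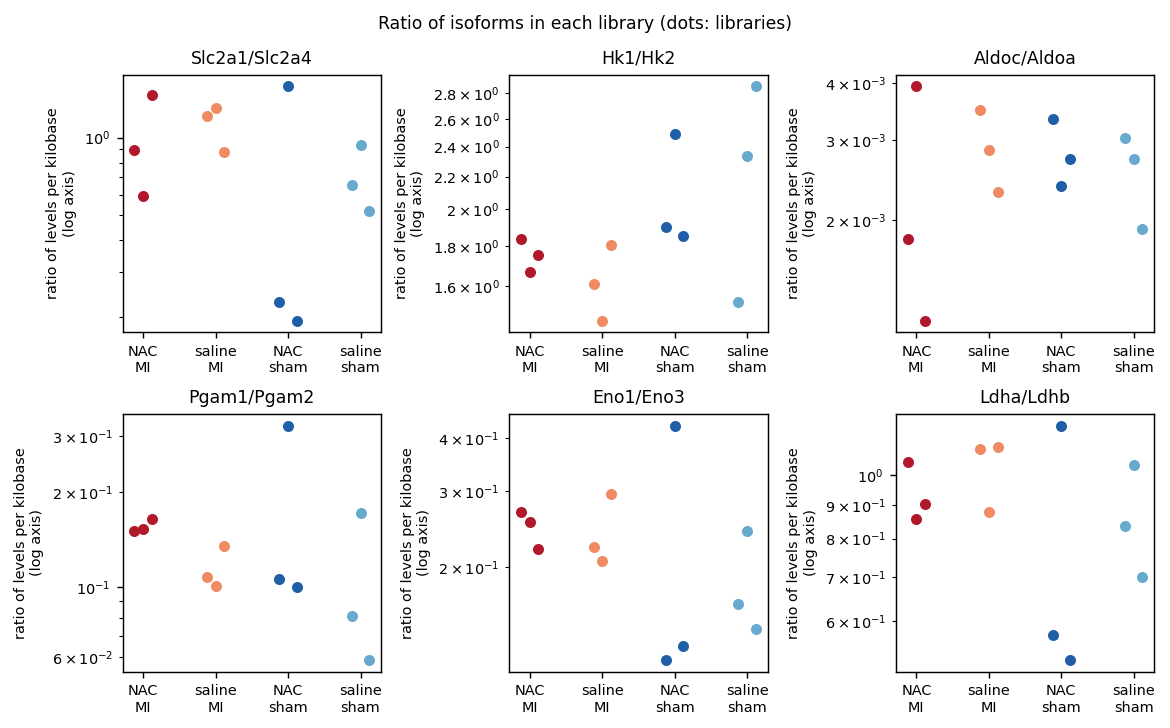
Ratios of paired forms in each library, computed on levels per kilobase of exon and drawn on log axes, with groups from NAC MI at left to saline sham at right. NAC sham 2 is the top dot of its group in 5 of the 6 panels, all but that of Aldoc over Aldoa.

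Genes of the same pathways outside the 37 were taken as lists. Of 22 tested among 31 other glycolysis and glucose uptake genes, 12 had an averaged MI log2 fold change above 0 and 2 passed as higher, both enolases, against 49.7% and 2.13% of all genes. Eno2 (the neuronal enolase) had 190, 192 and 142 normalized read counts in NAC MI libraries and 151, 157 and 194 in saline MI, against 63.2, 42.9 and 66.8 in NAC sham and 63.1, 57.6 and 41.7 in saline sham. All MI libraries were above all sham libraries, with a log2 fold change of 1.61 (SE 0.197, adjusted p = 0.000931). Eno1b, a near-copy of Eno1, had 0.81 (SE 0.140, adjusted p = 0.00906), with reads that the counting may have shared between them. Of 43 tested among 47 other HIF targets, 33 had a log2 fold change above 0, with a median of 0.34, and 5 passed, all higher, which is 11.6% of them, against 2.13% of all genes that rose and 49.7% that were above 0. One gene of this list, Pfkfb3, is also a member.

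Among them were Trf, Slc16a3, Bnip3 and P4ha3. Slc16a3 (MCT4, the lactate exporter) had 974, 897 and 352 normalized read counts in NAC MI libraries and 947, 758 and 762 in saline MI, against 143, 243 and 160 in NAC sham and 223, 195 and 155 in saline sham. Its MI and sham libraries did not overlap, with a log2 fold change of 2.01 (SE 0.243, adjusted p = 0.000882), and it was the 1 of 19 genes of pyruvate entry and lactate transport that passed. Trf (transferrin, the iron carrier) had a log2 fold change of 1.82 (adjusted p = 0.000123), Bnip3 (a mitophagy receptor) 0.90 (adjusted p = 0.0177) and P4ha3 (a further collagen prolyl hydroxylase subunit) 0.77 (adjusted p = 0.0241). No gene of these lists passed in a comparison of NAC with saline.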

How the data were processed

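Gene expression was measured by RNA sequencing of poly-A RNA in 12 libraries of mouse cardiomyocytes. The deposited table held a normalized signal per gene: the authors took the reads of each gene and divided them by 1 size factor for the library. Multiplied back, 100% of values came within 0.01 of a whole number of reads, and the factors equalled recomputed median-of-ratios factors in 12 of 12 libraries. Per the submitters' processing notes, STAR 2.7.10a, DESeq2 1.44.0 and mm10 were used. For the gene counter, the annotation and strandedness, versions and settings are not given in the sources used here. Symbols, exon lengths and coordinates came from the GENCODE annotation on GRCm38, which matched 52079 of 52336 identifiers.

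Genes with a mean value of at least 10 were kept (14996). Values were tested as log2(value + 1) with limma 3.58.1 (R 4.3.3) and a prior variance that follows the trend with level. The model had a mean for each of the 4 groups, fitted to all 12 libraries, with 8 residual degrees of freedom. Fold changes on this scale understate the change of low genes. Tests were two-sided, adjusted by the Benjamini-Hochberg method over all genes tested, with a threshold of 0.05. Results given as passing in limma, with no other setting named, are from this fit. Limma with other settings counts among the alternatives. The code was tested on simulated data. The alternatives were edgeR 4.0.16 and DESeq2 1.42.0 on the recovered reads, TMM scaling, library sizes without mitochondrial and globin reads, another pseudocount, other filters, library weights and leaving out libraries.

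The members, lists and tests were chosen with earlier results of these data known. Full values were given for members that passed, for the 4 members with the smallest p in each comparison and for 11 others of interest. Counts of reads without molecular identifiers are not counts of molecules, so floors cover counting error only. The values of 1 gene among the other HIF targets are not reported here.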

Additional observations from a re-analysis of the deposited data

How the results depend on the processing

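No member that passed in limma changed sign under any alternative of the comparison in which it passed. Some members that did not pass changed sign, such as Eno3, from -0.15 to 0.27 in the averaged MI comparison. The number of members that passed moved with the processing as follows. For MI against sham averaged over both injections (6 in limma), DESeq2 gave 12, library quality weights 16 and the fit without the 3 libraries that stood apart 10, with 2 to 10 when 1 library was left out. Of these, 11, 14 and 9 rose, and those that fell were Epas1 with DESeq2, Epas1 and Pfkfb2 with weights, and Pfkfb2 without the 3 libraries. The 12, 16 and 10 were 32.4%, 43.2% and 27.0% of the members, where these fits called 8.12%, 27.9% and 14.6% of all genes tested. After NAC (0 in limma), DESeq2 gave 5, weights 9 and the fit without the 3 libraries 4 (Slc2a4 lower), with 0 to 1 when 1 library was left out. DESeq2, the weights and the fit without the 3 libraries called 1.61%, 5.37% and 3.83% of all genes there. Of the members they called 13.5%, 24.3% and 10.8%. After saline (1 in limma), edgeR, library sizes without mitochondrial and globin reads, no filter and a mean of at least 50 each gave 0. DESeq2 and TMM scaling gave 2 each, weights 8 and the fit without the 3 libraries 4 (Epas1 lower in the last 2 fits). Leaving out 1 library gave 0 to 1. DESeq2 and TMM scaling called 3.09% and 0.94% of all genes there, against 5.41% of the members in each. The weights called 19.4% of all genes, against 21.6% of the members. The fit without the 3 libraries called 12.05% of all genes, against 10.8% of the members. The members thus exceeded the share of all genes by little with the weights, and fell below it without the 3 libraries. For NAC against saline averaged (0 in limma), DESeq2 gave 1, weights 4 and the fit without the 3 libraries 1, with 0 to 1 when 1 library was left out. DESeq2, the weights and the fit without the 3 libraries called 2.88%, 13.5% and 2.19% of all genes there. After MI, weights gave 1 (Hif1a, log2 fold change 0.69, adjusted p = 0.0305), and after sham weights and the fit without the 3 libraries gave 1 each (Slc2a4). Of all genes, weights called 4.57% after MI and 2.81% after sham, and the fit without the 3 libraries 2.79% after sham. The cause of these shifts in number was not tested. Across 9 other alternatives of the averaged MI comparison, Pgam1, Egln3, Pfkfb4 and Slc2a1 passed in 9, P4ha1 in 7 and Eno1 in 5.

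No paired analysis was possible because the labels give no replicate numbers shared between groups. With the title prefix as a block, fitted for NAC against saline after MI, 0 members passed, as without it. With 3 libraries in a group, low genes such as Car9 and Ankrd37 are limited by both counting error and spread.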

Other observations

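Genes of glycogen and of oxygen sensing outside the 37 were also taken as lists. Of 19 genes of glycogen metabolism, 11 had an averaged MI log2 fold change above 0, with a median of 0.14, and none passed in limma, while 4 were higher and 1 lower at an unadjusted p under 0.05. Of all genes tested 49.7% were above 0, 10.4% were higher at that p and 20.2% differed in either direction. The smallest p-values belonged to Pygl (liver glycogen phosphorylase, which breaks glycogen down) and Stbd1 (a glycogen-binding protein). Pygl had 1040, 906 and 890 normalized read counts in NAC MI libraries and 894, 1154 and 1042 in saline MI, against 812, 365 and 654 in NAC sham and 533, 484 and 774 in saline sham. No sham library reached the MI range, and the log2 fold change was 0.76 (SE 0.190, adjusted p = 0.0549). Stbd1 had 281, 387 and 228 in NAC MI libraries and 211, 198 and 183 in saline MI, against 247, 148 and 227 in NAC sham and 107, 117 and 136 in saline sham, with a log2 fold change of 0.62 for MI over sham (adjusted p = 0.0861) and 0.66 for NAC over saline (adjusted p = 0.191).

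Of 19 genes of oxygen sensing, 12 had an averaged MI log2 fold change above 0, with a median of 0.08, and 1 passed as higher, against 2.13% of all genes. Arnt2, a beta-type partner of the HIF alpha subunits, had 115, 317 and 147 normalized read counts in NAC MI libraries and 76.3, 109 and 80.9 in saline MI, against 46.8, 62.2 and 77.5 in NAC sham and 42.0, 65.5 and 35.7 in saline sham. Its log2 fold change was 1.21 (SE 0.275, adjusted p = 0.0346). NAC MI 2, the library with the lowest macrophage markers among the MI libraries and the highest epicardial sum (19632), had the highest level.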
